A study of Mus musculus with 9 samples.

Results

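Accessible chromatin was described at the ribosomal protein genes of the mouse, taken as the protein-coding genes whose symbols start with Rps, Rpl or Rplp followed by a number, without pseudogenes or ribosomal protein kinases. The rule gave 80 genes, 30 of the small subunit and 50 of the large subunit, among 21900 coding genes. A consensus region was counted as a member when it overlapped the stretch that runs 1000 bp outwards and 500 bp inwards from an end of such a gene. This gave 95 regions at 72 genes, of 80827 regions in all and of 12717 at an end of any coding gene, and all 95 were tested. The measurement was ATAC-seq, in which a transposase inserts into open DNA, in alphaTC1, a mouse pancreatic alpha cell line. Cells were transduced for 5 days with an shRNA against Smndc1, which encodes a Tudor-domain splicing factor, with an shRNA against Atrx, which encodes a chromatin remodeler, or with empty vector, with 3 biological replicates in each group. All 3 groups share the cell line, the transduction and the time, and the labels name a single kind of shRNA for each target, so that effects of the shRNA sequence and of the target cannot be told apart.

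Ribosomal proteins assemble with ribosomal RNA in the nucleolus into a small subunit, which decodes the mRNA, and a large subunit, which forms peptide bonds. Their genes are short, active in nearly every cell type, and usually driven by promoters with Ets and GC-box elements and without a canonical TATA box. Their transcripts start at a cytosine followed by a run of pyrimidines, the terminal oligopyrimidine tract through which mTOR and Larp1 control their translation. An ATAC-seq level measures how open the DNA is, not how much RNA or protein a gene makes.

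The start windows below show how the members differ at the start that RefSeq lists. Where transcription begins in these cells was not measured. Capitals mark the unbroken run of pyrimidines over the listed start, which is base 16 of each 30-base window, from 15 bases before the start to 15 bases from it. The sequences are from RefSeq on GRCm38.p6, the build named mm10 by the submitters, and are written 5′ to 3′ on the strand of the gene.
Rps18 (chr17:33955651-33955680, minus strand): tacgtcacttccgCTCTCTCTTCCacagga
Rps21 (chr2:180257364-180257393, plus strand): taccgaggacccgCCCTCCTgcccaatagt
Rps6 (chr4:86857353-86857382, minus strand): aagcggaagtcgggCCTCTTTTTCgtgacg
Rpl15 (chr14:18270972-18271001, minus strand): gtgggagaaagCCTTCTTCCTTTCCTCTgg
Rps10 (chr17:27635230-27635259, minus strand): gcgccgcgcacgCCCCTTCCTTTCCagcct
Rpl35 (chr2:39005117-39005146, minus strand): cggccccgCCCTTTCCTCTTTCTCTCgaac
Rpl28 (chr7:4792950-4792979, plus strand): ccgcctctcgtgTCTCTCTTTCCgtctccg
Rplp2 (chr7:141447636-141447665, plus strand): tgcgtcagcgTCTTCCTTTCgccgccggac
Rps19 (chr7:24884577-24884606, plus strand): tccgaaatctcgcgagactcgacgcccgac
Rps12 (chr10:23787195-23787224, minus strand): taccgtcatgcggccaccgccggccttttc
In the first 8 windows the listed start falls inside a pyrimidine run, and in those of Rps19 and Rps12 it does not. The windows are examples and do not give the share in the family. Of the 60 listed starts, 28 (46.7%) are a pyrimidine.

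A promoter is printed for Rps18, the single member called between groups with trended offsets, and for Rps21, the member with the highest level. Each run covers 250 bases before to 15 bases after the listed start. Capitals mark CCGGAA, the Ets core, GGGCGG, the GC box, and CCAAT, the core bound by NF-Y, on either strand.
Rps18 promoter (chr17:33955651-33955915, minus strand): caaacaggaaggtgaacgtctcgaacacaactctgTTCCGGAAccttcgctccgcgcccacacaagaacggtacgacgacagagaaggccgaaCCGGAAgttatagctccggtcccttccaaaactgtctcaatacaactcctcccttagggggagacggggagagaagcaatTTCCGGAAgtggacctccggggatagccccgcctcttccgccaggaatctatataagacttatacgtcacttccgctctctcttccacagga
Rps21 promoter (chr2:180257129-180257393, plus strand): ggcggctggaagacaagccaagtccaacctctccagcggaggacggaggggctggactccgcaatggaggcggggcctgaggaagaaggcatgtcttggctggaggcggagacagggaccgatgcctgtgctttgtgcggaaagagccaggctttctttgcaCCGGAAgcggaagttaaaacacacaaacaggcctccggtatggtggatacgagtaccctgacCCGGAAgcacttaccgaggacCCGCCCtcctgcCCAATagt
The Ets core lies in all 3 capital stretches of the Rps18 run, where a stretch of 8 capitals reads as the core on both strands. The Rps21 run has 4 capital stretches, which hold the Ets core, the GC box on the other strand and the NF-Y core.

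RefSeq lists a start for 60 of the 80 genes, and the letters at these 60 promoters were counted in 300-base windows from 250 bases before to 50 after the first listed start. The Ets core CCGGAA, on either strand, was in 48.3% of ribosomal protein promoters, against 28.7% of the 10294 listed promoters that overlapped a consensus region and 15.2% of all 27025 listed promoters. A cytosine followed by at least 4 pyrimidines stood exactly at the start in 21.7% of ribosomal protein promoters, against 2.45% of promoters in a region and 2.49% of all. A run of at least 8 pyrimidines within 20 bases of the start was found in 46.7%, 15% and 15.9% of these sets. GGGCGG was in 56.7%, 65.5% and 35.9%, CCAAT in 30%, 39.2% and 37.9%, and TATAAA in 10%, 6.45% and 14.2%. AAGATGG, the core bound by Yy1, was in 13.3%, 7.44% and 6.48%, and the E box CACGTG, whose letters read the same on both strands, in 8.33%, 10.3% and 7.24%. Both strands were searched for each motif, matches of different motifs may overlap, and a match describes letters only.

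**Figure D1:**
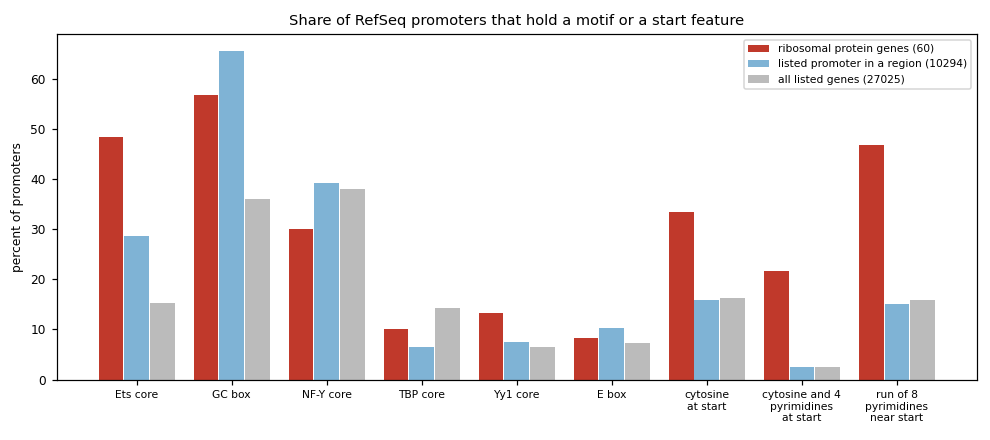
Share of promoters (y axis, percent) that hold each motif or start feature (x axis), for 60 ribosomal protein genes, 10294 listed promoters in a consensus region and 27025 listed promoters. The Ets core (48.3%) and the pyrimidine features of the start (21.7% and 46.7%) stand above both other sets, while the GC box (56.7%) lies between them.

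Each library held between 5.29 and 8.15 M counts in consensus regions, of which the 95 members took 0.256% to 0.321%. A member region had from 7 to 908 counts in a library, with a median per library of 130 to 220. Levels are given as CPM, counts scaled to a common library size with TMM factors. The libraries differed in contrast: in replicate 3 of each group the strongest 10% of regions held 38.5% to 38.8% of counts, against 43.3% to 48.8% in the other 6 libraries. Fits were therefore read with TMM factors and with trended offsets, which correct each library along a curve of its counts against the mean count. Of the alpha cell marker genes, 6 of 9 had a gene-end region, among them Gcg, Irx1 and Irx2, while Gc and Slc38a5 were among those that had none. Ins1, Ins2 and Pdx1 of the beta cell list also had none, nor had any listed acinar, fibroblast or endothelial gene.

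The ribosomal protein genes were open at the level usual for gene ends. In empty vector cells the 95 regions had a median of 33.9 CPM per kb of region, against 33.7 for all gene-end regions tested and 9.26 for all regions tested. Their median rank was the 86.1st percentile of all regions, and 5 of 95 lay below the 50th. Of 60 genes with a listed start, 55 (91.7%) had that promoter in a consensus region, against 38.1% of all listed genes. The 5 without were Rps25, Rpl3l, Rpl10l, Rpl32l and Rpl39l, of which Rpl3l is known as the paralog of Rpl3 in heart and skeletal muscle, and Rpl10l and Rpl39l as testis paralogs. By the window around the gene ends, Rpl22, Rps27l, Rpl38, Rps2, Rpl17, Rpl32l, Rpl10l and Rpl39l had no region.

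**Figure D2:**
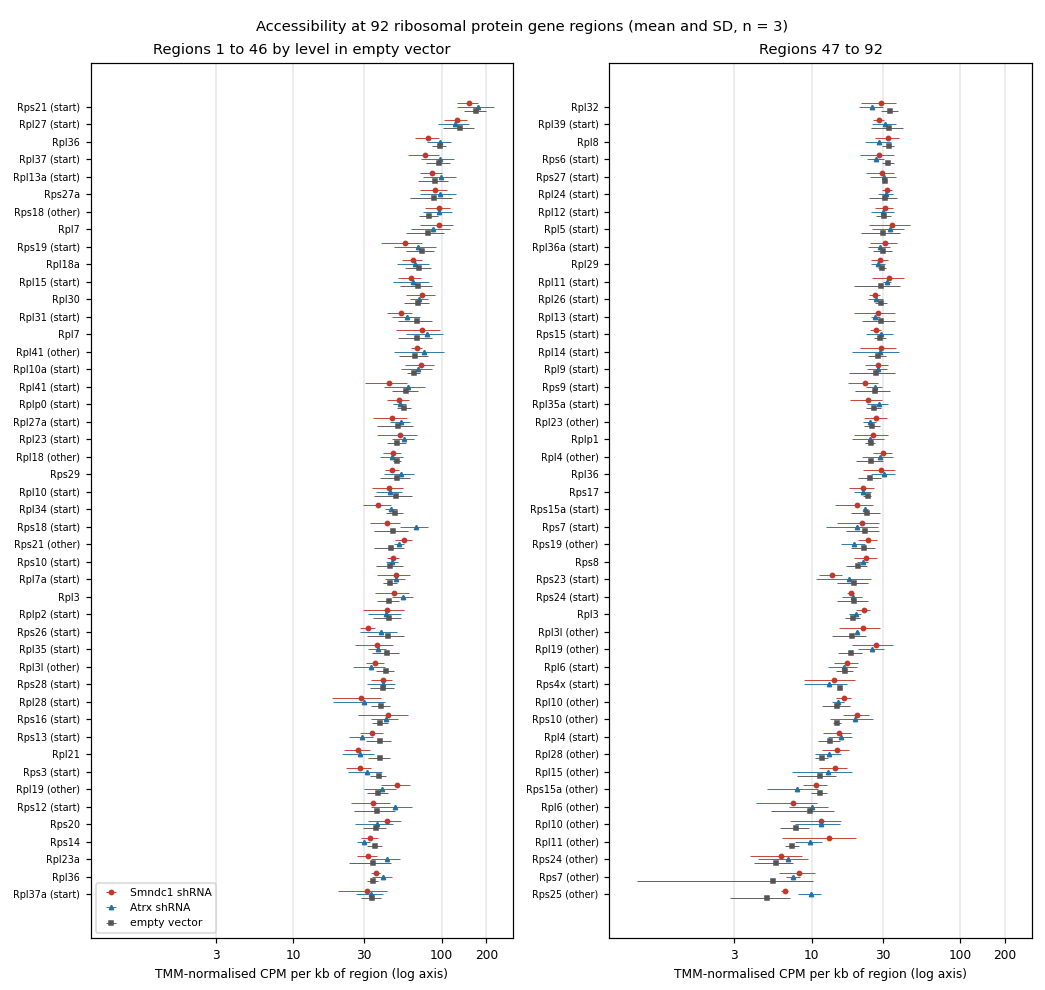
TMM-normalised CPM per kb of region (x axis, log scale) at 92 of the 95 ribosomal protein gene regions (y axis), as mean and SD of 3 libraries in Smndc1 shRNA, Atrx shRNA and empty vector cells. "Start" marks a region over a listed start and "other" a region of a gene with a listed start elsewhere; most regions lie between 10 and 100 and the 3 groups overlap along the order.

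The range within the family was wide. The start region of Rps21, a small-subunit protein, was the most open per kb, with 152 ± 24.8 in Smndc1 shRNA, 176 ± 48.7 in Atrx shRNA and 170.5 ± 28.6 CPM per kb in empty vector cells (SD, n = 3 each). Rpl27, of the large subunit, followed with 126 ± 22.8, 123 ± 29.1 and 134 ± 30.9 in the same order of groups. At the other end, the single region of Rps25, at the end away from its listed start, had 6.56 ± 0.344 CPM per kb in Smndc1 shRNA, 9.84 ± 1.76 in Atrx shRNA and 4.99 ± 2.18 in empty vector cells. Next above it in empty vector were regions away from the starts of Rps7 (5.46 CPM per kb), Rps24 (5.76), Rpl11 (7.40), Rpl10 (7.86) and Rpl6 (9.71). Along the order of the 95 levels in empty vector, 0 of 94 neighbouring pairs were apart by more than their SDs. Counted per region and not per kb, the 6 highest in empty vector were Rps21, Rpl27, Rpl7, Rpl36, Rps27a and Rpl10a, from 70.4 to 108 CPM.

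Position within the gene went with the level. The 49 regions over a listed start had a median of 37.7 CPM per kb in empty vector, close to the 42.7 of 7456 start regions of other genes. The 22 regions of the same family that were not at a listed start had 16.6, against 14.6 for 2941 such regions of other genes. In the 16 genes with both kinds, the start region was the higher per kb in 14 of 17 pairs, with a median ratio of 3.27 and a range of 0.534 to 6.23. The exceptions were Rpl4, Rpl41 and Rps18, whose other regions all lie in end windows shared with a neighbouring gene (Snapc5, Zc3h10 and B3galt4). Sharing was not particular to them: the other regions of Rpl15 (ratio 6.12) and Rpl23 (1.97) are shared too, and there the start region was the higher. In all, 28 of the 95 regions lie in a window shared with another coding gene, and at these the counts of the genes cannot be told apart.

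The members also share features that the rule did not use. Their genes span 592 to 11774 bp with a median of 3169.5 bp, lie on 19 chromosomes and include 14 on chromosome 7 and 4 on X. Small nucleolar RNA genes lie within the bounds of 28 of the 80 (35%), against 1.70% of coding genes and 0.783% of the coding genes no longer than the longest ribosomal protein gene. In empty vector the median was 36.4 CPM per kb at the 32 regions of host genes and 32.7 at the 63 others. The annotation lists 308 ribosomal protein pseudogenes, and reads from near-identical copies may have been shared out or dropped in a way not given in the sources used here.

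On the TMM scale the spread between replicates of the family exceeded the differences between group means. With TMM factors replicate 3 was the lowest of its group at 74 of 95 regions in each of the 3 groups. The summed level of the 95 regions was 2838 ± 474 CPM in Smndc1 shRNA, 2983 ± 564 in Atrx shRNA and 2919 ± 463 in empty vector cells. With trended offsets the sums were 2866 ± 90.3, 2932 ± 70 and 2846 ± 43.8, and replicate 3 was lowest at 46, 46 and 37 regions in the same order of groups. The median within-group coefficient of variation of a member region was 21% on the TMM scale and 12.6% on the trended scale, against 21.7% and 13.7% at all gene-end regions. The steadiest on the trended scale were the start region of Rpl26 (4.54%) and the downstream region of Rps18 (4.57%), and the least steady the weak regions of Rps7 (41.8%) and Rps24 (41.6%).

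With Smndc1 shRNA against empty vector, no ribosomal protein gene region changed by the test, and the values for the family lay close to 0. By the edgeR quasi-likelihood test with Benjamini-Hochberg adjustment over 80345 regions, 0 of 95 were called at an adjusted p under 0.05, where 0.156% of all regions were called. With trended offsets 0 of 95 were called, where 1.13% were. At an unadjusted p under 0.05 there were 4 members (8.09% of all regions) with TMM factors and 17 (12.5%) with trended offsets. DESeq2 and limma voom called 0 members, where they called 26 and 28 of all regions tested. The median log2 fold change was -0.04 over members and 0.02 over all regions with TMM factors, and 0.03 and 0.01 with trended offsets, so the sign of the family's median depends on the scaling. The 95% interval lay within 2-fold in both directions at 87 of 95 members in either fit, and the interval of the other 8 did not.

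The groups did not overlap at 2 members that were higher in Smndc1 shRNA (5.76% of all regions) and at 2 that were lower (7.02%). The higher were the downstream region of Rpl19 and the region of Rps10 away from its start, and the lower were Rpl21 and the start region of Rps3. Rpl21, whose product is a large-subunit protein, had 24.3, 26.4 and 17.6 CPM in Smndc1 shRNA, 26.3, 26.9 and 16.7 in Atrx shRNA, and 30.5, 37.6 and 27.4 in empty vector libraries. Every library of either shRNA lay below every empty vector library. The log2 fold change of Rpl21 was -0.48 ± 0.24 (SE) with an adjusted p of 0.603 for Smndc1 shRNA, and -0.45 ± 0.24 with an adjusted p of 0.888 for Atrx shRNA, both from edgeR and against the same controls. With trended offsets the groups did not overlap at 8 members higher in Smndc1 shRNA (7.73% of all regions) and at 9 lower (8.45%). The higher were regions of Rpl3, Rpl4, Rpl7, Rpl19, Rpl30, Rps10, Rps18 and Rps21, none of them over a listed start (Rpl3, Rpl7 and Rpl30 have none listed). The lower were Rpl21, a region of Rpl36, and the start regions of Rpl28, Rpl31, Rpl34, Rpl37, Rpl41, Rps3 and Rps19.

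The smallest p of a member in this comparison belonged to the upstream end of Rpl19, a large-subunit gene, at a log2 fold change of 0.54 ± 0.24 (edgeR adjusted p = 0.507). Its levels were 13.5, 19.2 and 25.7 CPM in Smndc1 shRNA, 21.2, 14.3 and 20 in Atrx shRNA, and 10.7, 13.7 and 15.5 in empty vector libraries, so that the groups overlap. Rps23, a protein of the decoding centre, had 15.1, 11.7 and 10.8 CPM in Smndc1 shRNA and 18.7, 21.7 and 13.3 in empty vector libraries (-0.51 ± 0.24, adjusted p = 0.581). A weak region at the far end of Rpl11 had the highest fold change, 0.81 ± 0.39 (adjusted p = 0.598), with 3.82, 5.42 and 10.3 CPM in Smndc1 shRNA and 4.15, 3.37 and 3.60 in empty vector libraries. Replicate 3 of Smndc1 shRNA alone stood far above, and without it the value was 0.31. Rps7, also weak, was among the 3 highest (0.60 ± 0.51), and the start region of Rpl28 among the 3 lowest (-0.46 ± 0.25).

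With Atrx shRNA against empty vector, too, no member was called. The edgeR count was 0 of 95 with TMM factors, where 0.0% of all regions were called, and 0 of 95 with trended offsets, where 0.269% were. Unadjusted p values under 0.05 were found at 1 member (5.75% of all regions) and at 11 (9.58%). DESeq2 and limma voom called no region at all, and so 0 members. The member median was 0.02 with TMM factors, against 0.01 over all regions, and 0.04 with trended offsets, against -0.02. Groups did not overlap at Rps25, higher in Atrx shRNA (4.83% of all regions), and at Rpl21, lower (5.65%). Rps25, a small-subunit protein known for its part in initiation at internal ribosome entry sites, had 4.66, 5.92 and 4.22 CPM in Atrx shRNA and 1.33, 3.5 and 2.66 in empty vector libraries, at a region shared with Ccdc84. This was the highest fold change of a member, 0.97 ± 0.49 (edgeR adjusted p = 0.877). The lowest was a region of Rps15a away from its start, at -0.50 ± 0.39, and Rpl32 stood at -0.42 ± 0.23 with an adjusted p of 0.905. Rpl10, at a weak region away from its start, had 0.56 ± 0.39. On the trended scale, groups did not overlap at 5 members higher in Atrx shRNA (7.31% of all regions), among them regions of Rpl3 and Rpl4 and both regions of Rps18, and at 6 lower (7.6%), at Rpl21, Rpl27, Rpl32, Rps3, Rps6 and Rps13.

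With Smndc1 shRNA against Atrx shRNA, accessibility was lower at the start region of Rps18, by the fit with trended offsets. Rps18 encodes a protein of the head of the small subunit. In trended CPM the region had 33.6, 31.4 and 26.9 in Smndc1 shRNA, 48.7, 46.6 and 44.4 in Atrx shRNA, and 31.9, 37.2 and 28.7 in empty vector libraries. All 3 Atrx shRNA libraries stood above all others, while Smndc1 shRNA and empty vector libraries overlapped. The log2 fold change was -0.60 ± 0.14 (edgeR adjusted p = 0.0130) for Smndc1 shRNA against Atrx shRNA, where 0.592% of all regions were called. For Atrx shRNA against empty vector it was 0.51 ± 0.14 with an adjusted p of 0.0787, and for Smndc1 shRNA against empty vector -0.09 ± 0.14 with an adjusted p of 0.846. The first 2 of these contrasts share the Atrx shRNA libraries.

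On the TMM scale the same Rps18 region had 33.1, 35.9 and 22.5 CPM in Smndc1 shRNA, 57.6, 47.7 and 37.0 in Atrx shRNA, and 35.7, 41.2 and 24.3 in empty vector libraries. Smndc1 shRNA and Atrx shRNA libraries did not overlap, Atrx shRNA and empty vector libraries did, and replicate 3 was the lowest in each group. The log2 fold change was -0.64 ± 0.25 and did not pass, with an edgeR adjusted p of 0.679. With trended offsets the call was lost without Smndc1 shRNA replicate 3 (adjusted p = 0.0819), Atrx shRNA replicate 1 (0.151) or Atrx shRNA replicate 2 (0.0923), and without replicate 3 of every group (0.0553). It was kept without Smndc1 shRNA replicate 1 (edgeR adjusted p = 0.0377), Smndc1 shRNA replicate 2 (0.0349) or Atrx shRNA replicate 3 (0.02). The 3 fits without an empty vector library kept it too, but that group enters this contrast only through the shared spread and the offsets. The region is 713 bp wide and covers the listed start of Rps18 and, on the opposite strand 135, 217 and 425 bp away, 3 listed starts of Vps52, a gene of vesicle tethering. Openness of the Rps18 and of the Vps52 promoter cannot be told apart there, and the printed Rps18 promoter spans the nearer 2 of these Vps52 starts.

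The downstream region of Rps18, shared with B3galt4, did not show the same order. It had 58.4, 62.5 and 63.0 trended CPM in Smndc1 shRNA, 58.2, 63.0 and 56.9 in Atrx shRNA, and 51.4, 49.4 and 53.6 in empty vector libraries. Its log2 fold change for Smndc1 shRNA against Atrx shRNA was 0.05 ± 0.12 with trended offsets. Both shRNA groups lay above empty vector there (0.25 ± 0.12 for Smndc1 shRNA, edgeR adjusted p = 0.362, and 0.21 ± 0.12 for Atrx shRNA, adjusted p = 0.607). Of the 11 alpha cell marker regions, 1 was called between the 2 shRNAs with trended offsets and 0 with TMM factors, by edgeR, where 0.592% and 0.0759% of all regions were called. It was a region of Gcg, the glucagon gene, and was higher in Smndc1 shRNA (1.0 ± 0.16, adjusted p = 4.94e-06). Against empty vector, edgeR with trended offsets called the same region lower with Atrx shRNA (-0.78 ± 0.16, adjusted p = 0.00359). It called Irx1 higher with Smndc1 shRNA (0.76 ± 0.17, 0.00303) and Atrx shRNA (0.72 ± 0.17, 0.0206), and Irx2 with Smndc1 shRNA (0.91 ± 0.20, 0.0041). Of the 3 beta cell marker regions it called 1, of Mafa, lower with Atrx shRNA (-0.50 ± 0.13, 0.0405). Of all regions, 1.13% were called with Smndc1 shRNA and 0.269% with Atrx shRNA. Summed trended levels of the 11 alpha marker regions were 370 to 390 CPM in Smndc1 shRNA, 329 to 356 in Atrx shRNA and 307 to 324 in empty vector libraries. The part of these marker regions in the Rps18 result was not tested.

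**Figure D3:**
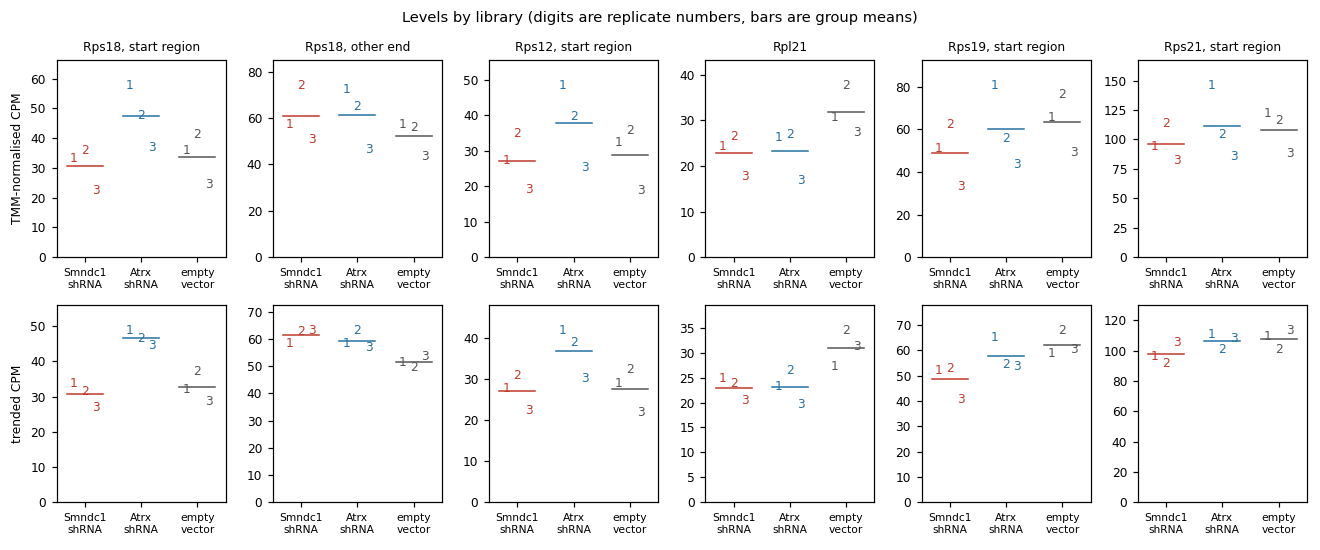
Level of each library (y axis, TMM-normalised CPM in the upper row and trended CPM in the lower row, both from 0) by group (x axis) at 6 ribosomal protein gene regions, with digits as replicate numbers and bars as group means. On the trended scale the 3 Atrx shRNA libraries of the Rps18 start region (44.4 to 48.7) stand above the other 6 (26.9 to 37.2).

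No other ribosomal protein region was called between the 2 shRNAs. The edgeR count was 0 of 95 with TMM factors, where 0.0759% of all regions were called, with 1 member at an unadjusted p under 0.05 (5.40% of all regions). DESeq2 and limma voom called 0 members, where they called 18 and 9 of all regions tested. With trended offsets the count was Rps18 alone, with 6 members at an unadjusted p under 0.05 (9.30%). Groups on the TMM scale did not overlap at Rps18 and Rps25, both lower in Smndc1 shRNA (5.15% of all regions), and at no member that was higher (5.03%). On the trended scale they did not overlap at Rpl27 and Rps13, higher in Smndc1 shRNA (7.03%), and at 7 lower members (6.97%), among them regions of Rpl13a, Rpl23a, Rpl37, Rps9, Rps18 and Rps19. The start region of Rps12, a small-subunit gene that acts in cell competition in Drosophila, had 27.6, 30.9 and 22.3 trended CPM in Smndc1 shRNA, 41.7, 38.8 and 30 in Atrx shRNA, and 28.9, 32.3 and 21.8 in empty vector libraries. The 2 shRNA groups overlapped there, and the log2 fold change of -0.45 ± 0.15 did not pass (edgeR adjusted p = 0.194). Rpl41, a very short ribosomal protein, stood at -0.38 ± 0.15 and Rpl23a, of the exit tunnel, at -0.38 ± 0.15 on the same scale (adjusted p = 0.322 and 0.338). The median was -0.01 over members and 0.00 over all regions with TMM factors, and 0.02 and 0.01 with trended offsets.

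**Figure D4:**
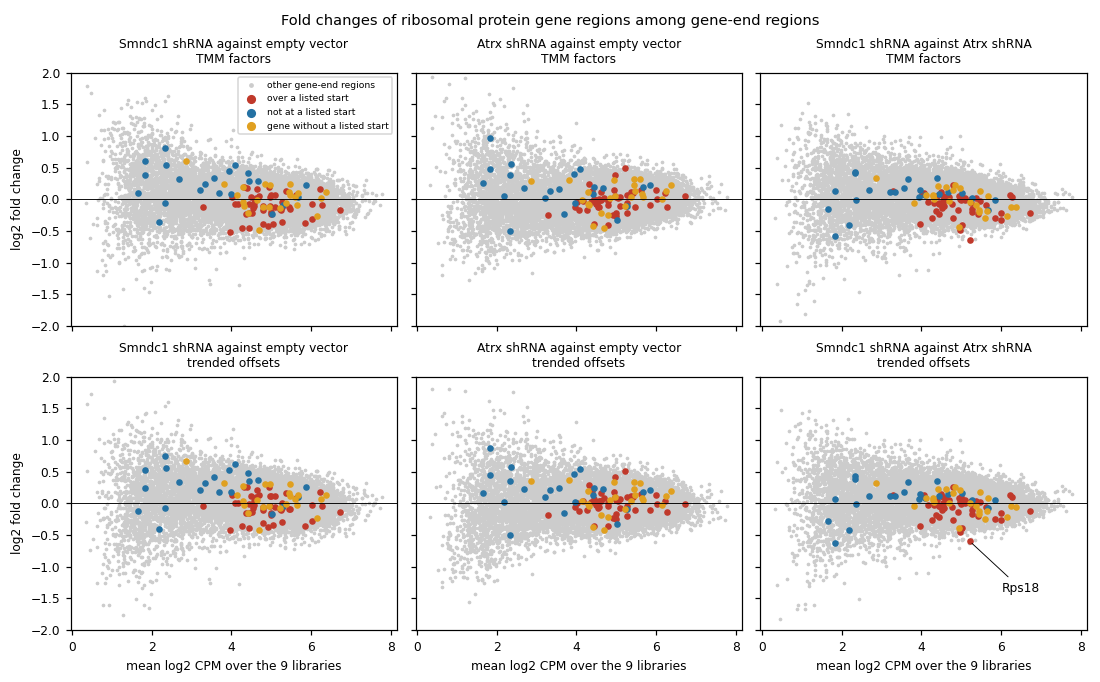
Log2 fold change (y axis, drawn from -2 to 2) against mean log2 CPM (x axis) for the 3 comparisons, with TMM factors above and trended offsets below; grey points are the other gene-end regions and coloured points the 95 members by position. Most members lie within 0.5 of 0 (89, 92 and 93 of 95 with TMM factors), and the Rps18 start region is named where it was called.

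Against empty vector, the median fold change was higher over members away from a listed start than over members at one. With Smndc1 shRNA against empty vector, 14 of the 49 regions over a listed start had a positive log2 fold change, with a median of -0.11, against 43.5% and a median of -0.03 at the start regions of other genes. Of the 22 regions not at a listed start, 18 had a positive fold change, with a median of 0.26, against 61.1% and 0.08 in other genes. With Atrx shRNA the medians were -0.03 at starts and 0.18 away from them (17 of 22 positive), against -0.03 and 0.04 in other genes. With trended offsets the medians at starts and away from them were -0.05 and 0.29 for Smndc1 shRNA, against 0.02 and 0.11 in other genes, and 0.01 and 0.21 for Atrx shRNA, against -0.02 and 0.06 in other genes. In other genes, too, the medians were higher away from starts on both scales. These 2 comparisons share the empty vector libraries, none of the 22 regions was called with TMM factors or trended offsets, and the sets were compared without a test.

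In summed trended CPM the 22 regions not at a listed start had 382.6, 394.2 and 429.4 in Smndc1 shRNA, 393.6, 382.2 and 357.9 in Atrx shRNA, and 333.9, 350.3 and 353.9 in empty vector libraries. All libraries of either shRNA lay above all of empty vector, by a small step. The alpha and duct marker sums separated the same way on this scale, but not those of the other lists. The 11 alpha marker regions, of 6 of 9 genes, had 370 to 390 CPM in Smndc1 shRNA, 329 to 356 in Atrx shRNA and 307 to 324 in empty vector libraries, and the 3 duct marker regions, of 2 of 3 genes without Krt19, had 71.8 to 96.4, 80.3 to 85 and 65.9 to 69.8 in the same order. The 3 beta marker regions, of 2 of 7 genes, went the other way, with 113 to 119, 113 to 115 and 122 to 141. The 1 delta marker region had 18.7 to 20, 21.5 to 26.6 and 21 to 30.5. The 1 immune marker region had 17.7 to 22.9, 14.6 to 20.2 and 14.2 to 15.6. The part of any of these lists in the sums of the 22 regions was not tested. The 49 start regions had 1656, 1625 and 1482, then 1716, 1649 and 1622, and 1667, 1691 and 1613 in the same order of groups, and overlapped. On the TMM scale the groups overlapped for the 22 regions too, with 376, 428.6 and 384.9 in Smndc1 shRNA, 438.2, 388.9 and 318.3 in Atrx shRNA, and 365.2, 377.2 and 318.6 in empty vector libraries. In the 28 alternative fits that hold all 22 regions, with other scalings, filters or libraries left out, their median against empty vector was positive, from 0.112 to 0.305 for Smndc1 shRNA and from 0.0633 to 0.259 for Atrx shRNA. A filter on a mean count of at least 50 left 14 of the 22, with medians of 0.31 and 0.20. The median over the 49 start regions ranged from -0.24 to 0.02 for Smndc1 shRNA over 29 alternatives, and was positive in 1, that with TMM factors and without Smndc1 shRNA replicate 3. For Atrx shRNA it ranged from -0.165 to 0.103, with 6 to 36 of 49 regions positive, and was positive in 13 of 29. With TMM factors it turned positive without Atrx shRNA replicate 3 (0.10), empty vector replicate 1 (0.05) or empty vector replicate 2 (0.07), so its sign rests on single libraries as well as on the scaling.

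**Figure D5:**
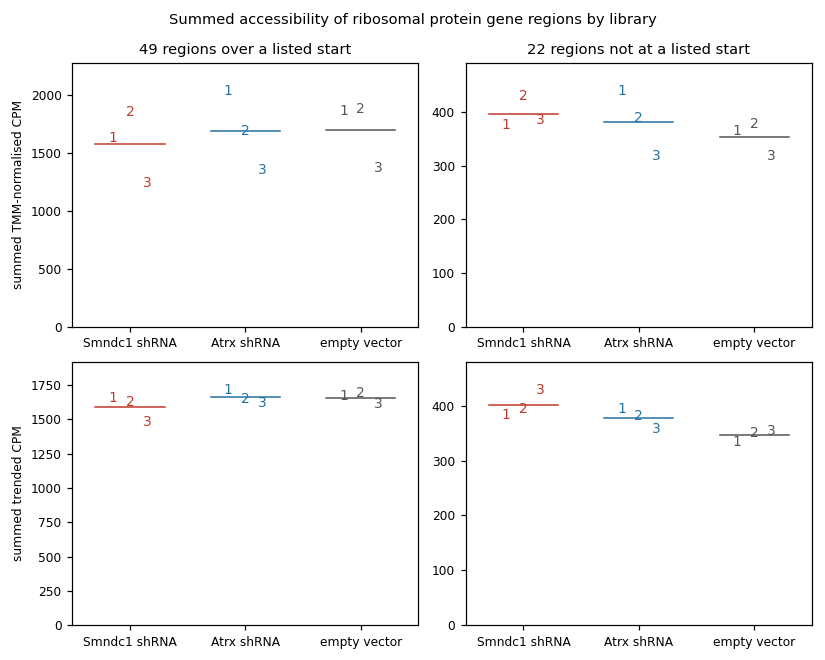
Summed level (y axis, from 0; TMM-normalised CPM above, trended CPM below) of 49 regions over a listed start and 22 regions not at a listed start, by group (x axis), with digits as replicate numbers and bars as group means. On the trended scale the 22 regions have 357.9 to 429.4 in the 6 shRNA libraries and 333.9 to 353.9 in the 3 empty vector libraries.

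No difference at the best-known members passed a test in any of the 3 comparisons. Rps6, the small-subunit protein phosphorylated downstream of mTOR, had 31.0 ± 8.0 CPM in Smndc1 shRNA, 29.6 ± 3.96 in Atrx shRNA and 35.7 ± 3.43 in empty vector cells (SD, n = 3 each). The start region of Rps19, whose human counterpart is mutated in Diamond-Blackfan anaemia, had 52.1, 52.9 and 40.8 trended CPM in Smndc1 shRNA, 65.1, 54.3 and 53.7 in Atrx shRNA, and 58.6, 67.7 and 60.4 in empty vector libraries. Smndc1 shRNA lay below both other groups there on that scale, at -0.35 ± 0.12 against empty vector (edgeR adjusted p = 0.144). Rpl5 and Rpl11, which can bind Mdm2 outside the ribosome, had start regions at 32.5 ± 9.93 and 22.3 ± 5.41 CPM in Smndc1 shRNA, 31.2 ± 7.59 and 21.5 ± 1.26 in Atrx shRNA, and 28.2 ± 8.21 and 19.6 ± 6.74 in empty vector cells. The stalk genes Rplp0, Rplp1 and Rplp2, which recruit translation factors, had log2 fold changes from -0.11 to 0.06 for Smndc1 shRNA and from -0.10 to -0.01 for Atrx shRNA.

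Rpl3, which lines the peptidyl transferase centre, had a region at each end, and the stronger had 42.6 ± 10.8 CPM in Smndc1 shRNA, 49 ± 8.04 in Atrx shRNA and 39.3 ± 6.75 in empty vector cells. Rps27a, made as a fusion with ubiquitin, had 74.3 ± 15.1, 80.7 ± 21.7 and 73.5 ± 23.1 CPM in the same order of groups. Rpl13a, known in addition for silencing of inflammatory mRNAs, had 60.2 ± 10.2, 70.2 ± 17.2 and 63.2 ± 14.2 at its start region. No difference at these 3 genes passed a test. For Rpl3l, both regions lay at the downstream end, and the stronger, shared with Msrb1, had 31.2 ± 4.38 in Smndc1 shRNA, 29.1 ± 6.96 in Atrx shRNA and 36.6 ± 5.16 CPM in empty vector cells. Rps27l has no region at its gene ends, but 1 lies over its listed start inside the gene, with 26.2 ± 5.02 in Smndc1 shRNA, 30.6 ± 6.03 in Atrx shRNA and 24.9 ± 5.55 CPM in empty vector cells. The like regions of Rpl22, Rpl38, Rps2, Rpl18 and Rpl19, with 23.2 to 65.9 CPM in empty vector, were not called in either fit, and the lowest adjusted p by edgeR was 0.189, for Rpl38 with Smndc1 shRNA and trended offsets.

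Calls at gene-end regions of genes that work with the ribosomal proteins were counted beside the share over all regions. In 8 lists (ribosomal proteins outside the name rule, the Mdm2 axis, ribosome biogenesis, RNA polymerase I, translation factors with oligopyrimidine tracts, mitochondrial ribosomal proteins, promoter factors, and mTOR with Larp1), 207 gene-end regions were not members. The comparisons are Smndc1 shRNA and Atrx shRNA against empty vector, then the shRNAs against each other. With TMM factors edgeR called 0 of the 207 in each, where 0.156%, 0.0% and 0.0759% of all regions were called. An unadjusted p under 0.05 was found at 3, 1 and 2 (8.09%, 5.75% and 5.4% of all regions). With trended offsets edgeR called 1, 0 and 1, where 1.13%, 0.269% and 0.592% of all regions were called. Unadjusted there were 25, 31 and 18, or 12.1%, 15% and 8.7% of the 207, against 12.5%, 9.58% and 9.3% of all regions. Both calls were genes of the mitochondrial ribosome. Mrps34 was higher with Smndc1 shRNA, at 40.5 ± 4.02 CPM against 29.5 ± 4.96 in empty vector cells (0.51 ± 0.14, adjusted p = 0.0398). Mrpl33 had 39.1 ± 4.96 CPM in Smndc1 shRNA and 26.4 ± 4.85 in Atrx shRNA cells (0.61 ± 0.15, adjusted p = 0.0177). The 11 end regions of the 7 ribosomal protein genes outside the name rule, such as Rpsa and Fau, had medians of 0.20 for Smndc1 shRNA and 0.29 for Atrx shRNA against empty vector with TMM factors, and none was called with either scaling. The 19 regions of translation factors had a median of -0.23 for Smndc1 shRNA against Atrx shRNA, and none was called.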

How the data were processed

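ATAC-seq was measured in 9 libraries of alphaTC1 cells, 3 each with Smndc1 shRNA, Atrx shRNA and empty vector. The deposited values are raw counts per consensus region on mm10, in 1 table whose 9 columns all matched a sample (0 unmatched). The submitters' processing notes list MACS2 2.2.7.1, bedtools 2.27.1, Bowtie2 2.4.4, deepTools 3.5.1 and SAMtools 2.8.0 without their roles. What was counted, and whether reads were filtered on mapping quality, is not stated in these sources. The labels call the replicates biological, and p-values measure the spread between these libraries.

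Regions without enough reads were removed (edgeR filterByExpr, minimum count 10), which left 80345 of 80827. All 9 libraries were fitted with edgeR 4.0.16 (R 4.3.3) quasi-likelihood tests and TMM factors, with Benjamini-Hochberg adjustment over all tested regions and a threshold of 0.05. Standard errors are the log2 fold change over the root of the F statistic. Trended loess offsets, DESeq2 1.42.0, limma 3.58.1 voom, other scalings and filters, a replicate block and left-out libraries were alternatives. The code was tested on simulated data. Trended fits with 1 library left out were added after seeing the data.

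Gene bounds and starts came from RefSeq tables, GRCm38.p6. Named regions were called members, in each comparison the 5 smallest p and the 3 highest and 3 lowest fold changes (mean log2 CPM of at least 1), the 6 highest and 6 lowest levels, and a list of key genes. Members named for groups that did not overlap, for steady levels or as list calls were chosen after their values were seen. The members and lists were chosen with earlier results of these data known. Same-numbered libraries correlated from -0.04 to 0.42 in their deviations from group means, and differently numbered ones from -0.37 to 0.30. The highest values were those between the replicate 3 libraries (0.31 to 0.42). The numbers were not taken as pairs in the main fit, which leaves any shared replicate effect in the spread. A few items are not reported here.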

Additional observations from a re-analysis of the deposited data

Results flagged for a closer look

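By the fit with trended offsets, the effect at the Rps18 start region differed between the 2 shRNAs. It was the 1 call among 95 members (1.05%), where 0.592% of all regions were called. With trended offsets the log2 fold change of Smndc1 shRNA against Atrx shRNA, which is also the difference of their effects against the shared empty vector libraries, was -0.60 ± 0.14 (edgeR adjusted p = 0.0130). All 3 Smndc1 shRNA libraries lay below all 3 Atrx shRNA libraries. With TMM factors the edgeR adjusted p was 0.679, and it was 0.723 by DESeq2 and 0.744 by limma voom. The trended call was also lost in some fits with libraries left out, as given above.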

How the results depend on the processing

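With TMM factors, 125, 0 and 61 regions were called for Smndc1 shRNA against empty vector, Atrx shRNA against empty vector, and Smndc1 shRNA against Atrx shRNA. In the same order of comparisons, trended offsets called 910, 216 and 476, a mean count of at least 50 called 291, 2 and 134, and TMM fits without replicate 3 of every group 614, 91 and 289 (trended 1024, 388 and 496). Fits without 1 library called 1 to 609, 0 to 22 and 1 to 107 with TMM factors, and 240 to 1216, 21 to 454 and 138 to 517 with trended offsets. For Smndc1 shRNA against empty vector and for the 2 shRNAs DESeq2 called 26 and 18 and voom 28 and 9, DESeq2 size factors in edgeR called 34 for the shRNAs against each other, and the 6 libraries compared gave 189 for Smndc1 shRNA and 18 for Atrx shRNA.

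The replicate block called 1268, 231 and 614 regions, and 2122, 792 and 1137 with trended offsets. The numbers were not shown to pair the libraries, and not every library correlated best with its own number. Among members the block called 0, 0 and 1 (Rps18, -0.65), and with trended offsets 1 (Rpl19, 0.60), 1 (Rps18) and 1 (Rps18, -0.61).

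Member calls were 0 in every TMM fit without 1 library, and 0 to 1 in each comparison in the trended ones. The member medians ranged from -0.12 to 0.07, -0.09 to 0.14 and -0.16 to 0.11 without 1 library (trended -0.02 to 0.07, 0.02 to 0.07 and -0.03 to 0.03). The median level in empty vector was 33.9 CPM per kb, and 38.0 with the strongest region of each gene. The fit with TMM factors called no member, so there was no member call for an alternative to reverse. The cause of the differences between fits was not tested. Regions of few counts, such as that of Rps25, limit what could be detected.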
